A study of Mus musculus with 6 samples.

Results

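Nrf2 and antioxidant genes are described here as 10 genes, Nqo1, Hmox1, Gclc, Gclm, Txnrd1, Srxn1, Slc7a11, Gsr, Prdx1 and Txn1, chosen by their symbols among the 32285 genes measured in skin during hair regeneration. All 10 had a row in the count matrices. The libraries are single-cell RNA-seq of dorsal skin from wildtype FVB males aged p55 to p57, whose back hair was shaved and then removed with wax, which makes resting hair follicles (HFs) enter growth. Time points were 0 h, 4 h and 16 h, then 2 d, followed by 4 d and 6 d after depilation, and each of these 6 is 1 library. Each library mixes cells of a pair of mice, prepared apart and pooled in equal numbers; cells are not assigned to either mouse. The labels of the 0 h library do not say whether its skin was taken before or just after waxing.

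The transcription factor NRF2, encoded by Nfe2l2, is held in the cytoplasm by KEAP1, which hands it to the proteasome. Oxidants and electrophiles modify cysteines of KEAP1, NRF2 then accumulates in the nucleus, pairs with a small MAF protein and binds antioxidant response elements in front of genes that detoxify and reduce. BACH1 competes for the same elements, with Hmox1 as its best known target. Skin keratinocytes rely on this system against sunlight, chemicals and the oxidants released in wounds.

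By role, Nqo1 is a quinone reductase and Hmox1 breaks down haem. Gclc and Gclm are the catalytic and the modifier subunit of the enzyme that makes the first bond of glutathione, Slc7a11 is the cystine importer xCT that feeds this step, and Gsr regenerates reduced glutathione. Txn1 is cytosolic thioredoxin, Txnrd1 is the reductase that recharges it, Prdx1 is a peroxiredoxin that removes peroxides, and Srxn1 is the sulfiredoxin that repairs overoxidised peroxiredoxins.

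After filtering, 50502 cells remained of 61031 deposited barcodes, with library totals between 72634390 and 112370376 UMIs (unique molecular identifiers, each standing for 1 captured RNA molecule). Cells were clustered without the 10 genes and named from marker genes as outer bulge (OB1 with 4593 cells, OB2 with 951, OB3 with 648), inner bulge (IB, 395), basal and suprabasal upper HF (uHF.B, 6046 and uHF.SB, 4665), suprabasal interfollicular epidermis (IFE.SB, 7778), sebaceous gland (SG, 1883), inner root sheath cells IRS3 (1146), melanocytes (583), T cells (2717), Langerhans cells (802) and dermal papilla and fibroblast cells (207). The basal interfollicular cluster of 16649 cells had none of its own markers and 1 uHF.B marker among its 10 leading genes and is called IFE cluster 0. The cells nearest to the IRS2 list, in HF clusters 8 and 9 (1439 cells), are called by those numbers because other lists led their marker genes. The larger of the 2 uHF.SB clusters, HF cluster 2, had the IFE.SB markers Krt1 and Krt10 and no uHF.SB marker among its 10 leading genes, so uHF.SB results are also given for HF clusters 2 and 3 singly. No marker of the own list was among the 10 leading genes of HF cluster 11 in OB1 (448 cells). The same held for HF cluster 4 in uHF.B (2145 cells) and the smaller T cell cluster (296 cells). These kept the class name, with 6 of 9, 6 of 7 and 8 of 8 markers of their lists raised. Of the barcodes, 430 occurred in more than 1 library, between 7 and 47 for a pair of libraries.

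A level is given as CPM, the UMIs of a gene scaled to the total of the cells of a type in 1 library, for sums of at least 20 cells. Each level has an exact Poisson 95% interval, and each share of cells an exact (Clopper-Pearson) binomial 95% interval. Both cover counting error only, and with 1 library per time point the times were not tested pairwise.

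The genes lie on chromosomes 2 to 4 and 8 to 10 of mm10, and the AP-1 and antioxidant elements next to them can be read from the promoters. Of the 10 genes, 7 had an entry among RefSeq promoters of GRCm38.p6, with 9 promoters of 250 bases before to 50 bases after the start. The core of the antioxidant response element, TGACNNNGC on either strand, was in 4 of these 9 promoters (Srxn1, Gclm, Prdx1 and Txnrd1) and in 12.4% of 32851 promoters. The AP-1 site TGANTCA, which the stress-induced FOS and JUN proteins bind, was in 2 of the 9 (Srxn1 and Prdx1) and in 7.81% of all. Stretches of these 2 promoters are shown. Both genes were past 2-fold higher in the outer bulge cells OB1 at 4 h, and so were Txnrd1 and Txn1, whose promoters had no AP-1 match. The Srxn1 stretch is chr2:152105402-152105505 and the Prdx1 stretch chr4:116685349-116685494, both on the plus strand, with the AP-1 sites in capitals. The last capitals of Prdx1 also hold a match to the antioxidant core on the other strand, and a match is a description of letters, not of binding.
Srxn1: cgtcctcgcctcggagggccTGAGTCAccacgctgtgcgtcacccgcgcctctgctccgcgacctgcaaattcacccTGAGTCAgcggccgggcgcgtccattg
Prdx1: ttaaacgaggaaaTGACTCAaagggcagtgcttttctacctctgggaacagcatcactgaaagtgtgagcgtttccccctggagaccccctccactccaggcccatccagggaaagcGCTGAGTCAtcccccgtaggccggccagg

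The 2 Srxn1 sites began 102 and 45 bases before the start, and its antioxidant core began 28 bases after it, outside the stretch shown. Positions in mm10 are chr2:152105516-152111376 for Srxn1, chr4:116685544-116700822 for Prdx1, chr10:82833951-82897712 for Txnrd1 and chr3:122245557-122270732 for Gclm, all on the plus strand. On the same strand, Txnrd1 overlaps Eid3, Gclm overlaps Gm6061, Slc7a11 overlaps Gm37692 and Gm37498, and Gsr overlaps Gm24727, so counts of these 4 genes are uncertain to the extent that reads were split or left out there. Txn1 has a processed pseudogene, which makes its count uncertain in the same way.

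The first comparison asked how the genes stood 4 h after depilation against 0 h in each cell type. OB1 and OB2 cells, of the outer bulge that houses the HF stem cells, had the most genes above 2-fold, 5 and 6 of 8, while OB3 had 1 of 5. In OB1 cells, Srxn1 stood at 1.10 CPM (0.133 to 3.96) at 0 h, 62.1 CPM (52.4 to 73.2) at 4 h, 15.8 CPM at 16 h, 3.42 CPM at 2 d, 0.979 CPM at 4 d and 3.54 CPM at 6 d. The 0 h and 4 h values rest on 2 and 144 UMIs, a ratio of 56.7 (15.4 to 472). It was therefore high in 1 library, still raised in the next, and back near its 0 h level from 2 d on.

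Txnrd1 in OB1 cells stood at 10.4, 103, 34.9, 56.7, 66.5 and 75.1 CPM in the order of time, with 4 h over 0 h at 9.86 (6.17 to 16.7). Unlike Srxn1, Txnrd1 stayed above its 0 h level in each of the later libraries. Prdx1 in OB1 cells stood at 616, 1477, 1151, 1297, 818 and 607 CPM, and 4 h was 2.40 times 0 h (2.24 to 2.57). Txn1 stood at 936, 2346, 1763, 641, 856 and 646 CPM, a ratio of 2.51 (2.37 to 2.65), so that Txn1 in the OB1 sums, whose makeup changed (below), was under its 0 h level from 2 d on. Hmox1 stood at 8.23, 19.4, 12.1, 3.04, 4.27 and 8.08 CPM, a ratio of 2.36 (1.29 to 4.56).

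Thus 5 of the 8 genes above the minimum in OB1 cells were at least 2-fold higher at 4 h and 0 were 2-fold lower, beside 18.6% higher and 14.6% lower of all 7425 genes above the same minimum (at least 10 UMIs over both libraries and a mean of at least 10 CPM). Srxn1 passed this minimum only through its 4 h level. Nqo1, at 12.1 CPM at 0 h and 2.16 CPM at 4 h, stayed under it, so the 0 depends on the minimum. With no minimum CPM, 5 genes were higher in OB1 and 1 was lower. The other 3 of the 8, Gclc, Gclm and Gsr, the genes of glutathione, had ratios of 1.26 (0.923 to 1.73), 1.12 (0.879 to 1.43) and 1.69 (0.867 to 3.44). The interval of Gsr includes 2-fold, and the groups of genes were not tested against each other.

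The cells called OB1 changed in makeup between these libraries. At 0 h, 268 of 319 OB1 cells were in HF cluster 5, led by Krt24 and Cd34, while at 4 h 240 of 503 were in HF cluster 11, led by Cpa4, Anxa3 and Krt8, which had too few cells at 0 h to give a level. No OB1 marker was among the 10 leading genes of cluster 11. Within cluster 5, Srxn1 was at 1.34 CPM at 0 h and 18.0 CPM at 4 h, from 2 and 15 UMIs. In HF cluster 1, led by Gnmt and Edn2, it was at 0 CPM and 17.3 CPM, from 0 and 10 UMIs in 51 and 105 cells. In cluster 11 it was at 132 CPM at 4 h and 22.6 CPM at 16 h, so cluster 11 held 119 of the 144 UMIs of Srxn1 at 4 h. Txnrd1 in cluster 5 was at 8.68 CPM and 73.1 CPM, and Prdx1 there at 647 CPM and 1673 CPM, ratios of 8.42 and 2.59. Txn1 was 1.66 times as high at 4 h within cluster 5 and 4.83 times within cluster 1, and its level in cluster 11 was 3603 CPM. At 0 h it stood at 1087 CPM in cluster 5 and 242 CPM in cluster 1. Cluster 1 had 51 of 319 OB1 cells at 0 h and 1510 of 1690 at 4 d. What part this makeup has in the later OB1 levels was not tested. The glutathione genes Gclc, Gclm and Gsr had ratios of 1.97, 1.54 and 1.93 within cluster 5, near that of Txn1, and Gsr in cluster 1 went from 1 to 8 UMIs. Hmox1 in cluster 5 stood at 9.35 CPM at 0 h and 5.99 CPM at 4 h, from 14 and 5 UMIs, in cluster 1 it went from 1 to 10 UMIs, and in cluster 11 it was at 33.2 CPM at 4 h. The 4 h levels of Srxn1, Txnrd1 and Prdx1 were thus above their 0 h levels in both clusters present at 0 h, while Hmox1 was higher in 1 and lower in the other.

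**Figure D1:**
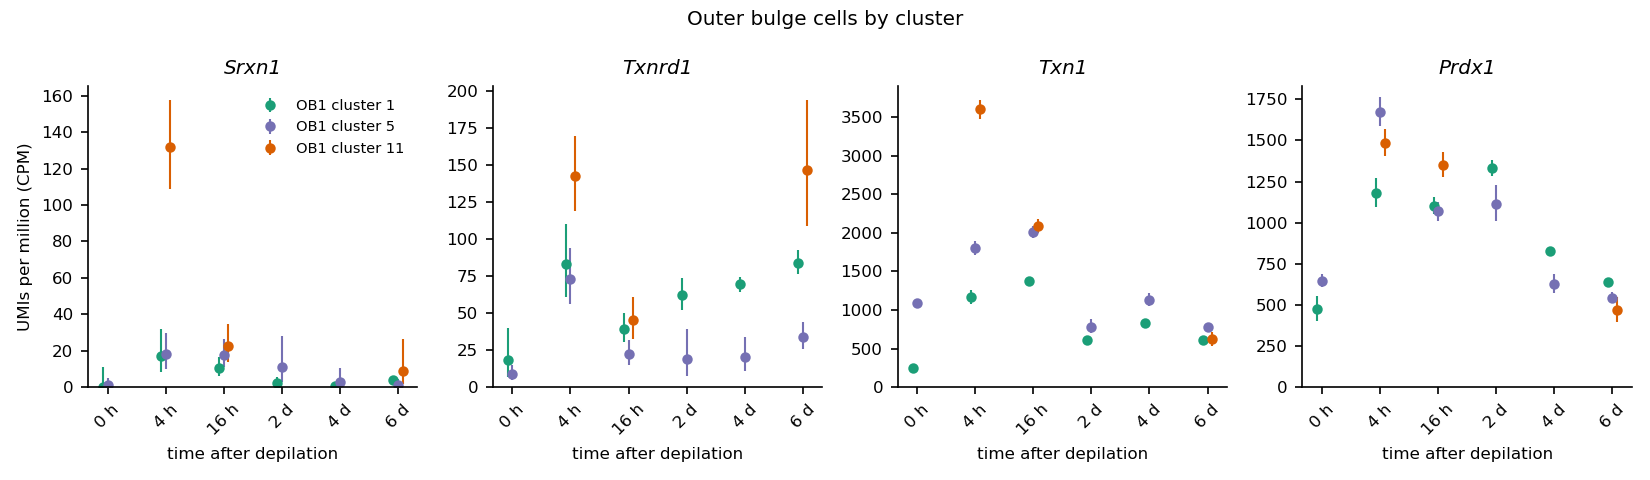
Levels of Srxn1, Txnrd1, Txn1 and Prdx1 (CPM, y axis) by time after depilation (x axis) in the 3 HF clusters that make up OB1, with bars for the exact Poisson 95% interval. Cluster 11, absent at 0 h, has the highest Srxn1 level, 132 CPM at 4 h, while clusters 1 and 5 reach 17.3 and 18.0 CPM.

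OB2 cells, fewer in number (89 at 0 h and 112 at 4 h), had 6 of 8 genes at least 2-fold higher at 4 h and 0 lower, beside 24.3% and 15.6% of all genes. Srxn1 in OB2 went from 1 to 20 UMIs, 2.53 CPM to 42.6 CPM, a ratio of 16.9 (2.70 to 699). Txn1 was at 1048 and 2593 CPM, a ratio of 2.47 (2.21 to 2.77), and Prdx1 at 631 and 1400 CPM, a ratio of 2.22 (1.91 to 2.58). Hmox1, Txnrd1 and Gsr made up the 6, and of them Txnrd1 had an interval that reached below 1 (0.899 to 39.6). In OB3 cells, Txn1 was the 1 of 5 genes past 2-fold, at 450 and 1825 CPM, beside 19.8% of all genes higher and 19.8% lower.

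In the upper HF fewer of the genes were past 2-fold than in OB1 and OB2. Among uHF.SB cells, Srxn1 stood at 5.77, 47.5, 19.0, 7.35, 7.999 and 15.3 CPM, and 4 h was 8.24 times 0 h (5.13 to 13.8). With Hmox1, at 13.7 and 31.5 CPM, it made 2 of 8 genes higher in uHF.SB and 0 lower, beside 19.3% and 11.6% of all genes. In HF cluster 2 alone Srxn1 was at 6.30 and 55.7 CPM, and in HF cluster 3 at 3.21 and 18.0 CPM, the latter from 2 and 9 UMIs. In uHF.B cells, Gsr was the 1 of 7 genes past 2-fold, at 16.8 and 64.2 CPM, a ratio of 3.81 (3.08 to 4.75), with 21.1% of all genes higher and 15% lower. Gclm in uHF.B cells went the other way without reaching 2-fold, from 53.8 CPM to 27.7 CPM, a ratio of 0.514 (0.417 to 0.629), and was at 75.0, 106, 131 and 111 CPM later. Srxn1 in uHF.B was below the minimum level, at 1.66 and 12.2 CPM, a ratio of 7.36 (3.90 to 15.1).

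In IFE cluster 0, Gsr stood at 23.0, 103, 46.3, 45.2, 41.3 and 30.7 CPM, with 4 h over 0 h at 4.47 (4.10 to 4.87) from 624 and 3177 UMIs. Gsr and Gclm, at 16.3 and 32.6 CPM, were 2 of 6 genes past 2-fold upward and 0 downward, beside 19.3% and 14.9% of all genes.

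Among genes above the minimum, the highest ratio after that of Srxn1 in OB1 was in IFE.SB cells. Slc7a11, which was at most 2.61 CPM in the other 5 libraries, stood at 27.5 CPM (25.2 to 29.98) at 4 h against 0.606 CPM (0.339 to 0.999) at 0 h. These are 512 and 15 UMIs, a ratio of 45.4 (27.3 to 81.7), found in 295 of 1241 and 12 of 1438 cells, with at most 10 UMIs in 1 cell. IFE.SB is made of IFE clusters 2 and 8, rich in Krt1 and in Lor, and Slc7a11 at 4 h stood at 24.3 and 32.2 CPM in them. The share of IFE.SB cells with a Slc7a11 UMI, after each cell was thinned to 2000 UMIs, was 0.0699% (0.00177 to 0.389) at 0 h and 4.66% (3.55 to 5.99) at 4 h, and 0.835% and 23.8% unthinned. T cells, taken as a background, had 0% and 0.408% thinned, and their cells had 2702 and 2215 UMIs by median, those of IFE.SB 11269 and 10979.

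Of 5 marker genes of neutrophils, Cxcr2 and Mmp9 moved with Slc7a11 in these sums, while Csf3r, Retnlg and Ly6g were at 0 in IFE.SB at 4 h. The summed level of the 5 in IFE.SB was 0.283 CPM at 0 h, 61.3 CPM at 4 h, 8.14 CPM at 16 h and 2.51 CPM at 2 d, and in uHF.SB it was 7.34 CPM at 4 h, where Slc7a11 was at 6.91 CPM. In IFE.SB at 4 h that sum thus came from Cxcr2 and Mmp9 alone, and whether neutrophils had a part in the Slc7a11 level was not tested.

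With Gsr, at 11.1 and 37.2 CPM, Slc7a11 made 2 of 9 genes higher in IFE.SB, beside 17.7% of all genes. Hmox1 was the 1 gene lower, at 79.0 CPM at 0 h and 29.6 CPM at 4 h, a ratio of 0.374 (0.340 to 0.412), beside 9.74% of all genes.

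Cells outside the HF and epidermal epithelium differed among themselves. T cells had 0 of 7 genes past 2-fold in either direction, while 20.8% of their genes were higher and 6.47% lower. Srxn1 in T cells stood at 10.5, 11.3, 10.5, 8.35, 3.15 and 6.30 CPM. Langerhans cells had 3 of 7 genes higher (Gclm, Gsr and Txn1) and 1 lower (Gclc), beside 20.9% and 11.5%, with Txn1 at 292 and 1034 CPM. Melanocytes had 2 of 5 higher (Gclm and Txn1) and 0 lower, beside 26.2% and 10.1%, from 29 and 89 cells. IB cells had 2 of 7 higher (Txnrd1 and Srxn1) and 1 lower (Gclm), beside 22.8% and 21.9%, from 21 cells at 0 h. Txnrd1 in IB went from 0 to 50 UMIs, at least 3.72-fold higher when the 0 h sum is set to a floor of 3 UMIs, while the exact 95% interval of the ratio starts at 2.91.

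**Figure D2:**
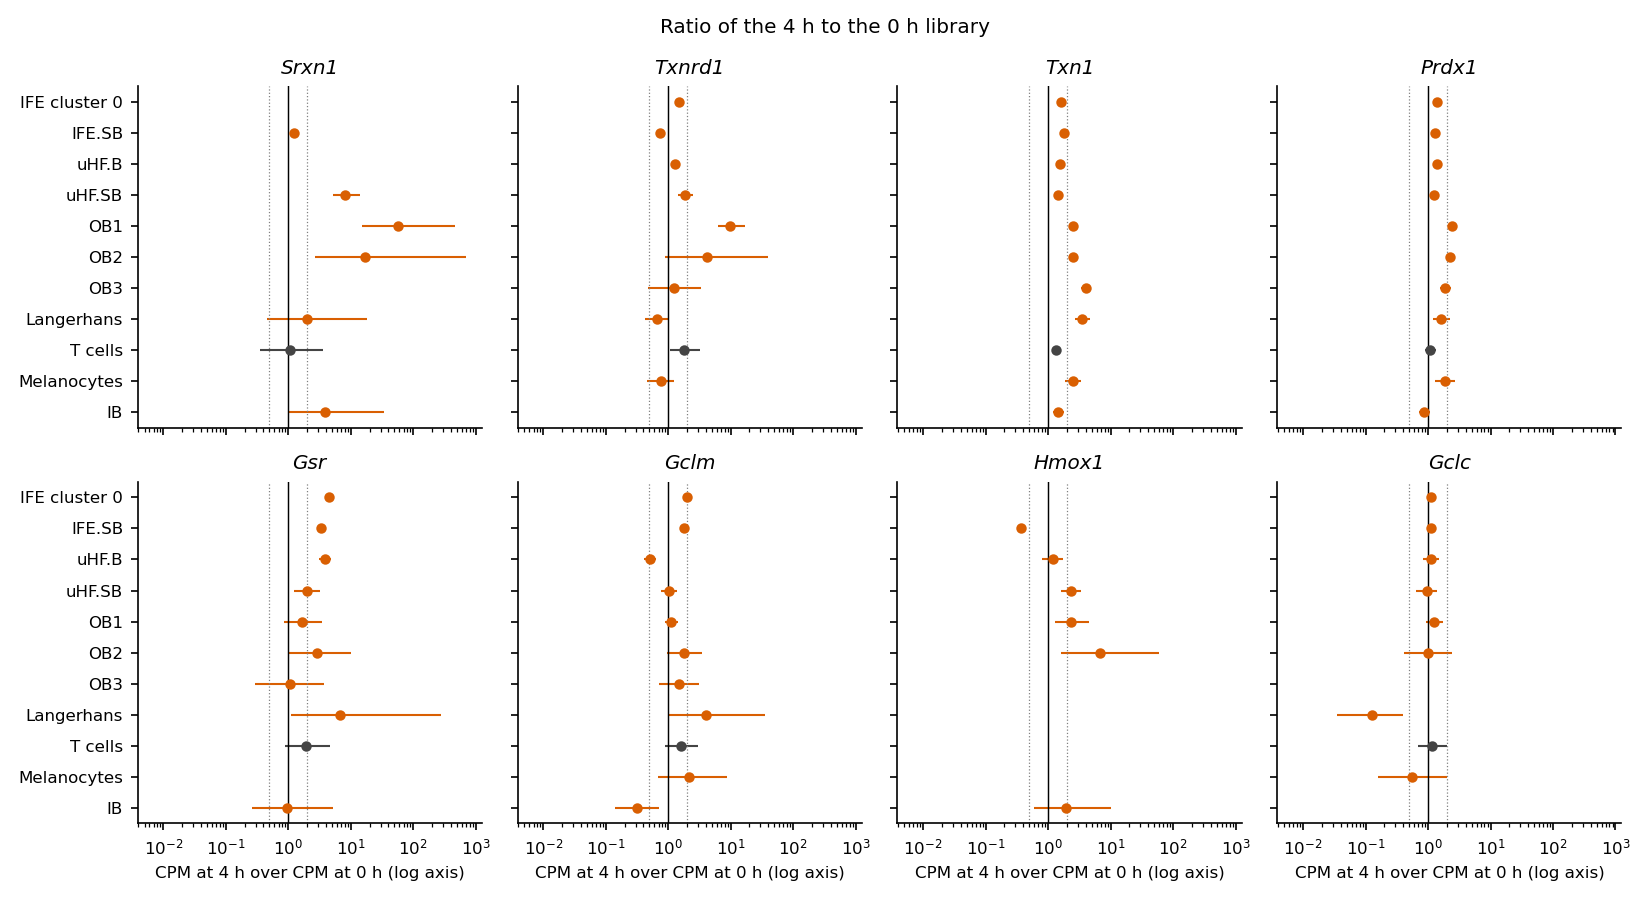
Ratio of the 4 h to the 0 h level (x axis, log scale) for 8 genes in 11 cell types, with exact 95% intervals for counting error and dotted lines at 2-fold in each direction. Srxn1 lies furthest right in OB1 at 56.7, near 1 in T cells at 1.08, and Txn1 lies past 2 in each of the 3 outer bulge types.

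Across the 11 cell types, all from the same 0 h and 4 h libraries, 26 gene and cell type pairs were at least 2-fold higher and 3 were lower. Of all genes, between 17.7% (IFE.SB) and 26.2% (melanocytes) of a cell type were higher. Between 6.47% (T cells) and 21.9% (IB) were lower. The minimum is a mean of both libraries, so a gene low in 1 of them can pass through the other alone. Nqo1 is not among the 26 and 3 pairs because its mean stayed under the minimum, but it pointed downward in epithelial cells. With no minimum CPM, the genes higher and lower were 5 and 1 in OB1, 3 and 1 in uHF.B, 3 and 1 in uHF.SB and 4 and 1 in IFE cluster 0. In uHF.B cells Nqo1 stood at 11.7, 1.74, 9.70, 18.0, 15.7 and 14.5 CPM, with 85 and 8 UMIs at 0 h and 4 h, a ratio of 0.148 (0.0621 to 0.306). The ratio was 0.290 (0.109 to 0.657) in uHF.SB, 0.179 (0.0529 to 0.484) in OB1 and 0.278 (0.189 to 0.402) in IFE cluster 0. The lowest Nqo1 level of all times was that of 4 h in 7 of 11 cell types, and the highest Srxn1 level was that of 4 h in 8 of 11.

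The summed level of 12 genes that respond to enzymatic dissociation was higher at 0 h than at 4 h in bulge and basal cells. It was 31950 CPM at 0 h and 14398 CPM at 4 h in OB1, 29764 and 10493 CPM in uHF.B, 14758 and 13917 CPM in IFE.SB, and 9304 and 10129 CPM in T cells. Their part in the 4 h to 0 h ratios was not tested.

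**Figure D3:**
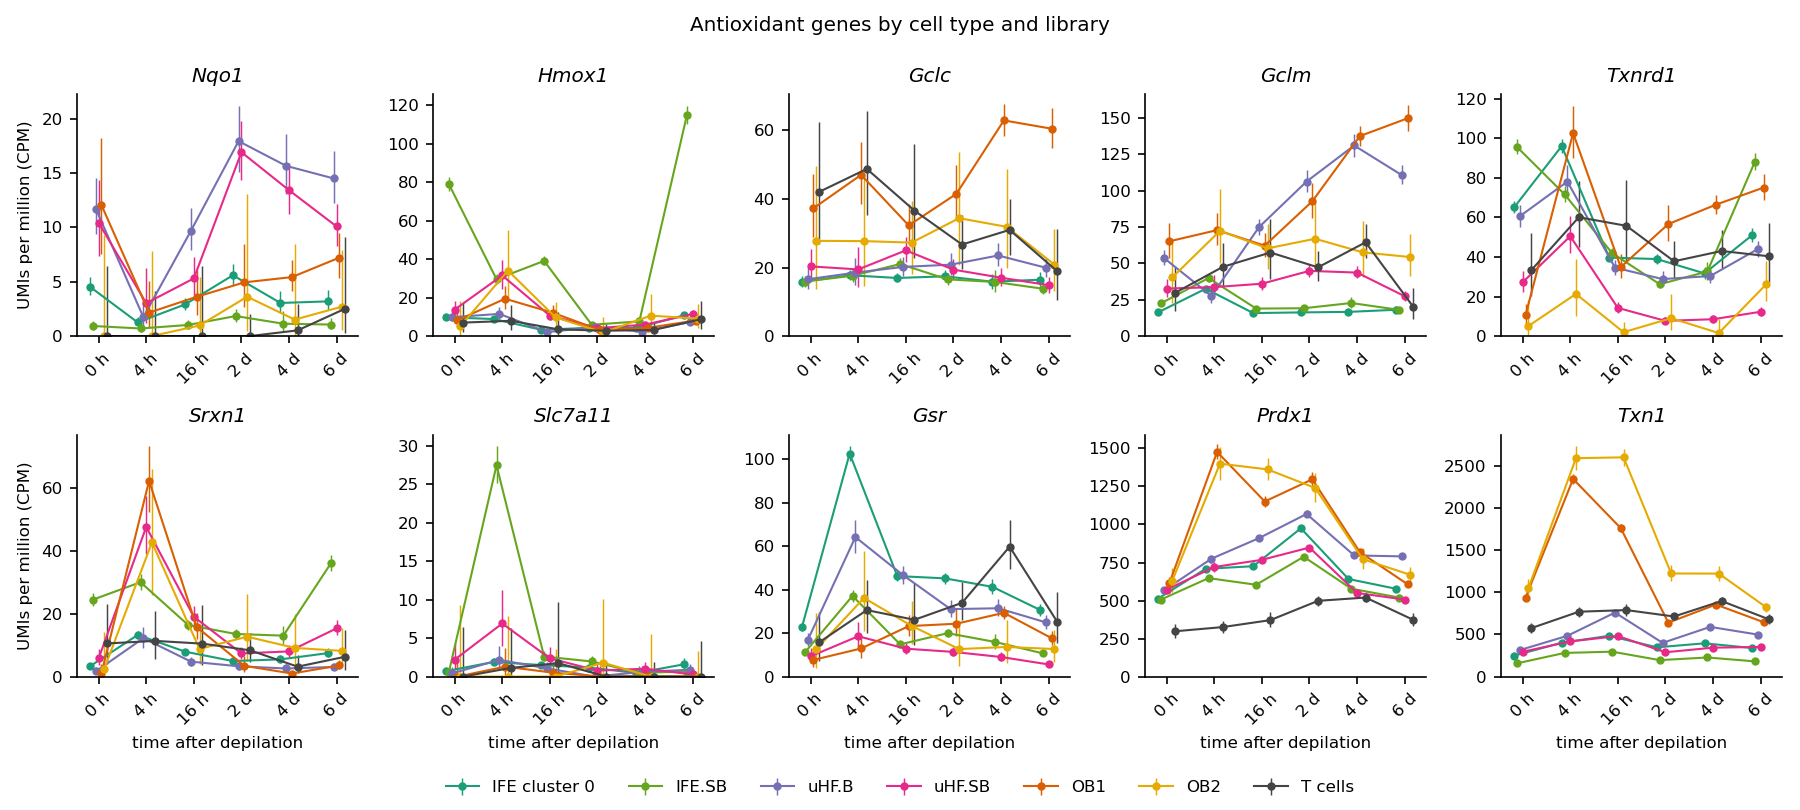
Level of each of the 10 genes (CPM, y axis) by time after depilation (x axis) in IFE cluster 0, IFE.SB, uHF.B, uHF.SB, OB1, OB2 and T cells, with bars for the exact Poisson 95% interval. Srxn1, Txnrd1 and Txn1 peak in OB1 at 4 h, at 62.1, 103 and 2346 CPM, while Nqo1 is low at 4 h.

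The time course over all 6 libraries was tested per cell type with a smooth curve of hours in edgeR, which left 2 residual degrees of freedom. With this test 1 gene was called in 1 cell type. Txnrd1 in melanocytes stood at 366, 277, 185, 147, 67.1 and 103 CPM. The linear part of its fitted curve fell by 1.86 on the log2 scale over the whole course. The edgeR test of the whole curve gave adjusted p = 0.0373, in a cell type where 5.58% of all genes were called. In the earliest 3 libraries melanocytes had median depths, in the order of time, of 2333, 1811 and 1911 UMIs against 3707 to 5004 later, and the summed level of their own markers went from 4182 CPM at 0 h to 28809 CPM at 4 d. What part this has in the Txnrd1 course was not tested.

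Elsewhere the same edgeR test called 0 of the genes, where it called 0% of all genes in IFE cluster 0, IFE.SB, OB2, OB3, uHF.B and uHF.SB, 0.0161% in Langerhans cells, 0.0182% in OB1 and 0.0514% in T cells. At an unadjusted p under 0.05 the genes were Hmox1 and Txnrd1 in both IFE.SB and uHF.SB, Srxn1 in Langerhans cells and Srxn1 in OB1, and 0 in the other 5. Beside them, 383 of all 12499 genes tested in IFE.SB and 476 of 11536 in uHF.SB had such a p. So did 178 of 6201 in Langerhans cells and 1099 of 11000 in OB1. DESeq2 called Hmox1 in IFE.SB, where it called 1.1% of all genes, and Srxn1 in OB1, where it called 4.66%. It called no other of the 10 genes in any cell type, Txnrd1 in melanocytes included.

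With time as log2(hours + 1), which gives the early libraries more weight, 6 calls were made. In OB1, where 16.4% of all genes were called, they were Srxn1 (adjusted p = 0.000123), Txn1 (adjusted p = 0.00543) and Hmox1 (adjusted p = 0.011) in edgeR. In OB3 it was Txn1 (edgeR, adjusted p = 0.000875), beside 10.3% of all genes, and in melanocytes Txnrd1 and Prdx1, beside 14.9%. 

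The size of the swing over the 6 libraries is a description only. In IFE.SB, 4 of 6 genes above 20 CPM on average had a highest level at least 2-fold the lowest (Hmox1, Gclm, Txnrd1 and Srxn1), beside 42% of all such genes. Hmox1 had the widest swing there, 19.6-fold. The count was 2 of 4 in IFE cluster 0 beside 47.4%, 4 of 5 in uHF.B beside 59.5%, 1 of 4 in uHF.SB beside 53.5%, and 4 of 5 in OB1 beside 64.8%. It was 2 of 4 in OB2 beside 69.5%, 4 of 6 in OB3 beside 72.3%, 3 of 6 in T cells beside 60%, 5 of 5 in Langerhans cells beside 70.9% and 7 of 7 in melanocytes beside 83.9%.

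Hmox1 in IFE.SB stood at 79.0, 29.6, 39.1, 5.86, 7.64 and 115 CPM, high at both ends and low at 2 d and 4 d. The level sat in cluster 8, rich in the cornified envelope gene Lor, at 147, 61.2, 106, 8.88, 13.6 and 232 CPM, while the Krt1-rich cluster 2 had between 2.68 and 12.2 CPM. At 0 h, 209 of 1438 IFE.SB cells had a Hmox1 UMI, with up to 137 UMIs in 1 cell.

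The second comparison asked how the genes differed between neighbouring cell types of the same library, with edgeR and the library as block. Suprabasal keratinocytes, which have left the basal layer to differentiate, were set against basal ones in both compartments. In the upper HF, 6 of 9 genes tested differed (2 higher in uHF.SB and 4 lower), beside 59.7% of all genes. In the interfollicular epidermis, 7 of 10 differed (4 higher in IFE.SB and 3 lower), beside 64.6%. Both counts were near the share of all genes, and nothing particular to the 10 genes is read from them.

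Srxn1 was higher in suprabasal cells of both, by a log2 difference of 2.01 ± 0.16 (SE, adjusted p = 1.22e-06) in the upper HF, where it was higher in 6 of 6 libraries, and 1.87 ± 0.27 (adjusted p = 0.00034) in the epidermis, higher in 6 of 6. Its level was 5.77 to 47.5 CPM in uHF.SB against 1.66 to 12.2 CPM in uHF.B. Hmox1 was higher by 1.15 ± 0.26 (adjusted p = 0.00385) and 2.54 ± 0.46 (adjusted p = 0.00138).

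Gsr was lower in suprabasal cells of both, by -1.53 ± 0.13 (adjusted p = 1.95e-06) on the log2 scale in the upper HF and -1.17 ± 0.10 (adjusted p = 1.15e-05) in the epidermis, and it was lower in 6 of 6 libraries of each. Txn1 was lower by -0.30 ± 0.08 (adjusted p = 0.00888) and -0.53 ± 0.06 (adjusted p = 5.14e-05).

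Other genes did not move alike. Txnrd1 was lower in uHF.SB by -1.28 ± 0.14 (adjusted p = 1.97e-05), at 7.69 to 50.5 CPM against 28.8 to 78.2 CPM, while in IFE.SB it differed by 0.29 ± 0.20 (adjusted p = 0.244). Gclm was lower in uHF.SB by -0.99 ± 0.22 (adjusted p = 0.00558) and higher in IFE.SB by 0.49 ± 0.07 (adjusted p = 0.000351). Nqo1 was lower in IFE.SB by -1.38 ± 0.17 (adjusted p = 0.000128), at 0.698 to 1.84 CPM against 1.26 to 5.60 CPM, and differed by -0.14 ± 0.14 (adjusted p = 0.425) in uHF.SB. Gclc was called higher in IFE.SB by 0.20 ± 0.08 (adjusted p = 0.0451), but its plain CPM was higher in 2 of 6 libraries, and without scaling factors the difference was -0.0012 (adjusted p = 0.991). Prdx1 differed by -0.16 ± 0.07 (adjusted p = 0.0798) in the upper HF and 0.03 ± 0.07 (adjusted p = 0.676) in the epidermis, where it was -0.17 (adjusted p = 0.0213) without scaling factors. Leaving the scaling factors out moved the median of all genes from -0.02 to -0.18 in the upper HF and from -0.03 to -0.24 in the epidermis, and the genes called higher and lower from 3212 and 3437 to 2324 and 4581 and from 3756 and 4139 to 2603 and 5802.

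The difference between these differences was tested in 1 model and called 3 of 10 genes, beside 9.67% of all genes. The suprabasal minus basal difference was larger in the upper HF for Nqo1 by 1.30 ± 0.27 (adjusted p = 0.00438), and smaller for Gclm by -1.49 ± 0.38 (adjusted p = 0.0187) and for Txnrd1 by -1.57 ± 0.29 (adjusted p = 0.00197). The Gclm call was lost in 5 of the 6 fits that left out 1 library, with adjusted p in edgeR from 0.0559 to 0.0974, and held without the 4 h library.

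Each suprabasal cluster was also compared singly with its basal cells in edgeR. HF cluster 2 differed in 7 of 9 genes, beside 54.9% of all genes, and HF cluster 3 in 7 of 9, beside 56.3%. IFE cluster 2 differed in 8 of 10, beside 55.1%, and IFE cluster 8 in 7 of 10, beside 69.1%. Srxn1 was higher in each of the 4, by 2.12 ± 0.23, 1.52 ± 0.22, 0.97 ± 0.11 and 2.54 ± 0.36, and Gsr was lower in each, by -1.51 ± 0.16, -1.56 ± 0.12, -0.90 ± 0.11 and -1.70 ± 0.15.

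The epidermal clusters went opposite ways for Txnrd1, which was lower in IFE cluster 2 by -0.60 ± 0.08 (edgeR, adjusted p = 0.000118) and higher in IFE cluster 8 by 1.01 ± 0.29 (adjusted p = 0.0122). Hmox1 was higher in IFE cluster 8 by 3.62 ± 0.57 (adjusted p = 0.00037) and differed by 0.12 ± 0.12 (adjusted p = 0.436) in IFE cluster 2. Nqo1 was lower in HF cluster 2 by -0.56 ± 0.16 (adjusted p = 0.0112) and differed by 0.43 ± 0.17 (adjusted p = 0.0511) in HF cluster 3. The values for the joined classes thus rest on sums over clusters that differ, in which each cluster weighs by its UMIs. At 0 h IFE cluster 8 had 302 of 1438 IFE.SB cells and 12589885 of their 24765478 UMIs.

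**Figure D4:**
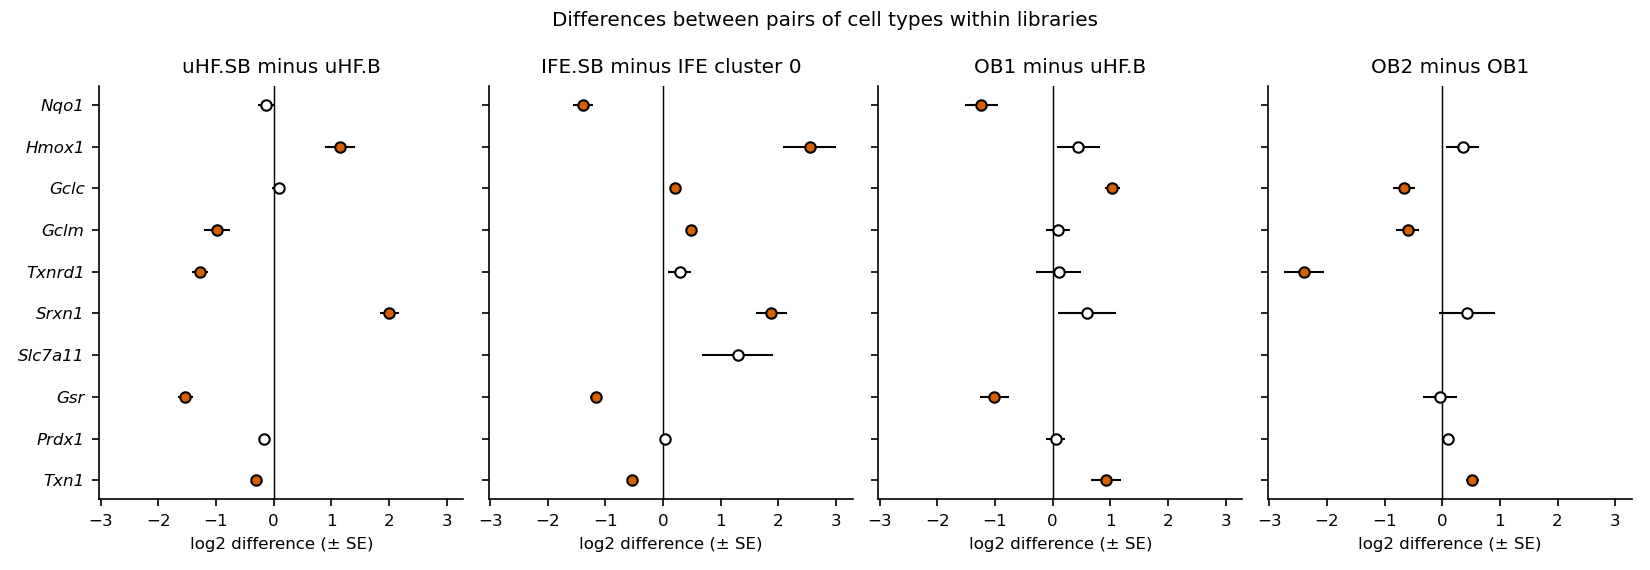
Log2 difference with its standard error (x axis) of each gene between 2 cell types of the same library, in 4 panels, with filled points for an adjusted p under 0.05 in edgeR. Srxn1 and Hmox1 lie above 0 and Gsr and Txn1 below 0 in both suprabasal minus basal panels, while Txnrd1 is at -1.28 in the upper HF and 0.29 in the epidermis.

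In the bulge, 4 of 9 genes differed between OB1 and uHF.B, beside 23.8% of all genes. Gclc was higher in OB1 by 1.03 ± 0.13 (adjusted p = 0.000511), at 32.3 to 62.9 CPM against 16.6 to 23.5 CPM, and higher in 6 of 6 libraries. Txn1 was higher by 0.93 ± 0.26 (adjusted p = 0.0307), and Nqo1 and Gsr were lower by -1.24 ± 0.28 (adjusted p = 0.0118) and -1.01 ± 0.25 (adjusted p = 0.0162). The OB1 clusters differed, and they were not tested singly against uHF.B. At 0 h and 4 h Gclc was at 42.1 and 82.7 CPM in HF cluster 5. In HF cluster 1 it was at 15.3 and 17.3 CPM, from 5 and 10 UMIs, beside 16.6 and 18.5 CPM in uHF.B. Txn1 in HF cluster 1 was at 242 and 1170 CPM, beside 315 and 484 CPM in uHF.B. Srxn1 and Txnrd1, which were past 2-fold in OB1 at 4 h, differed by 0.59 ± 0.50 (adjusted p = 0.438) and 0.11 ± 0.39 (adjusted p = 0.882) over all libraries.

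Between OB2 and OB1, 4 of 8 genes differed, beside 20.5% of all genes. Txnrd1 was lower in OB2 by -2.39 ± 0.34 (adjusted p = 0.000499), at 1.52 to 26.3 CPM against 10.4 to 103 CPM, and it was lower in 6 of 6 libraries. Gclc and Gclm were lower by -0.66 ± 0.19 (adjusted p = 0.0301) and -0.60 ± 0.20 (adjusted p = 0.0464), and Txn1 was higher by 0.52 ± 0.11 (adjusted p = 0.00606). OB2 cells thus had more thioredoxin RNA and less of its reductase than OB1.

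The order of levels over cell types differed by gene, and neighbours in the order mostly overlapped in their ranges. Nqo1 was highest in IRS3, at 21.4, 31.8 and 24.1 CPM at 2 d, 4 d and 6 d, and the next type, OB3, ranged from 0 to 20.4 CPM. It was then in uHF.B (1.74 to 18.0 CPM), uHF.SB, OB1 and down to T cells, with 0 UMIs in 4 of 6 libraries, and Langerhans cells, with 0 in 5 of 6.

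Among the joined cell types Hmox1 was highest in dermal papilla and fibroblast cells, at 194 CPM at 4 d and 218 CPM at 6 d, from 125 and 23 cells, and no other type came above the 115 CPM of IFE.SB at 6 d. Within IFE.SB, IFE cluster 8 alone stood at 232 CPM at 6 d. Dermal papilla and fibroblast cells had a level at 4 d and 6 d only. At 6 d, 10 of their 25 UMIs were in 1 cell, and without that cell the level was 138 CPM. In these 2 sums the 7 markers of macrophages, which break down haem, were at 9.12 and 0 CPM and those of endothelium at 155 and 8.72 CPM, beside 8932 and 1743 CPM of the type's own markers, of which Lum and Dcn were at 0 at 6 d.

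Gclm was highest in SG cells, which secrete lipid, at 114, 206, 235, 229 and 203 CPM from 4 h to 6 d, followed by the joined HF clusters 8 and 9 at 155 CPM at 4 d and 125 CPM at 6 d. Gclc was highest in the joined HF clusters 8 and 9, at 84.4 CPM at 4 d and 56.5 CPM at 6 d. The level came from cluster 9, led by Tagln and Basp1, with 135 and 104 CPM, while cluster 8, led by Krt25 and Krt71, had 33.4 and 31.5 CPM. Gclm likewise stood at 196 and 202 CPM in cluster 9 and 113 and 83.8 CPM in cluster 8. Both subunits of the glutathione-making enzyme were thus higher in cluster 9 than in cluster 8 at both times.

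Txnrd1 was highest by median in melanocytes at 166 CPM and lowest in OB2 at 7.05 CPM. Srxn1 was highest by median in IB at 33.6 CPM (12.2 to 52.4 over its libraries) and lowest in the joined HF clusters 8 and 9, at 0.254 CPM at 4 d and 3.804 CPM at 6 d. Gsr had its highest keratinocyte median in IFE cluster 0, 43.3 CPM (23.0 to 103 over its libraries). Prdx1 had medians from 355 CPM in Langerhans cells to 1284 CPM in SG, and Txn1 from 211 CPM in IFE.SB to 1223 CPM in OB2, so both were found in every cell type.

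Slc7a11 had medians of at most 1.61 CPM in every cell type. Beside IFE.SB at 4 h it reached 64.1 CPM in melanocytes at 6 d, from 25 UMIs in 4 of 65 cells. Of these, 15 were in 1 cell, and without it the level was 26.4 CPM. SG cells had 10.2 CPM at 4 h and at most 2.09 CPM in later libraries.

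**Figure D5:**
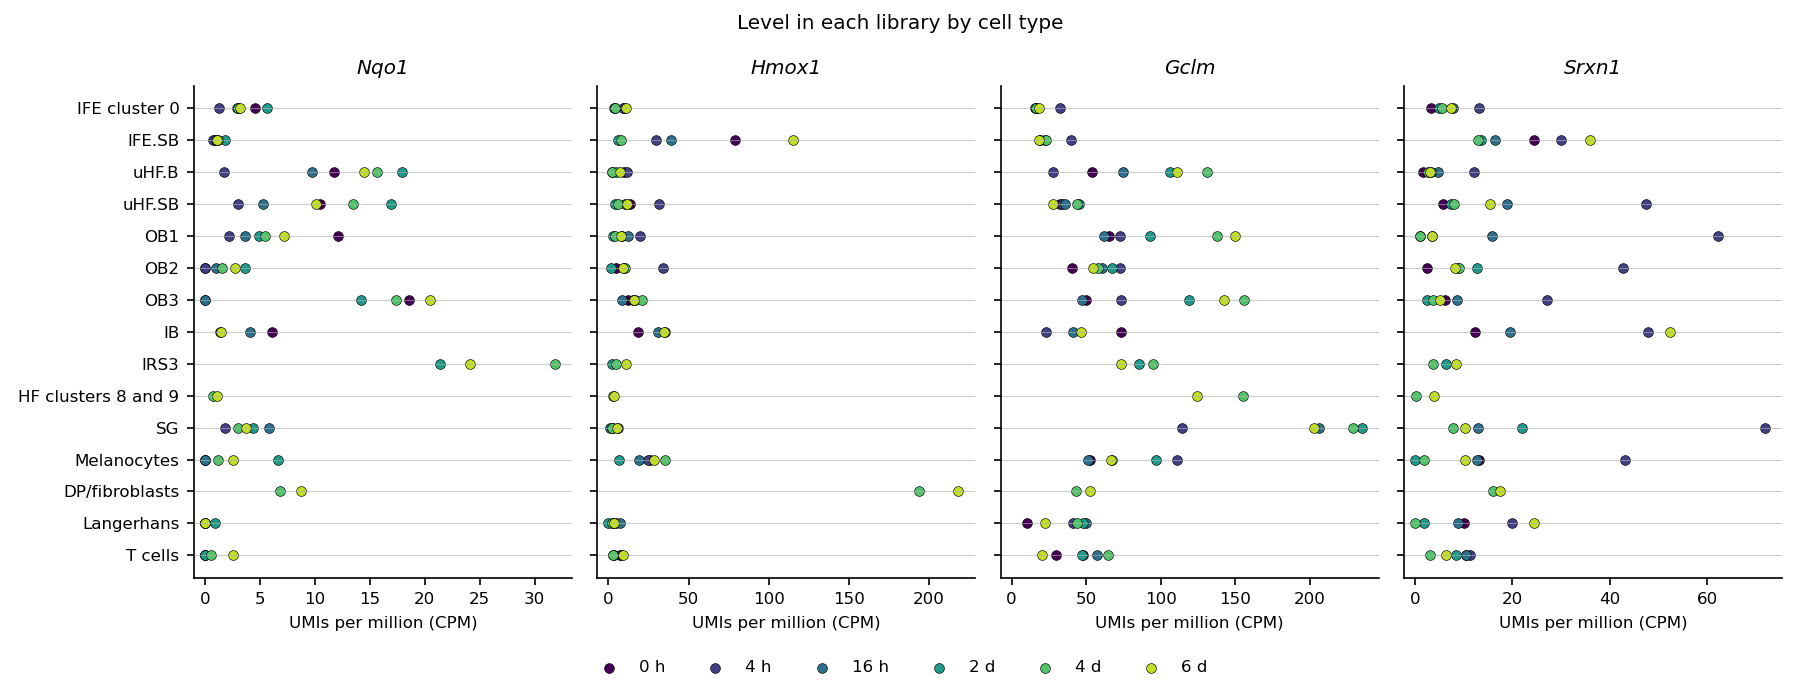
Levels of Nqo1, Hmox1, Gclm and Srxn1 (CPM) by cell type, with 1 dot per library. Nqo1 dots of IRS3 lie at 21.4 to 31.8 CPM above all others, Hmox1 dots of dermal papilla and fibroblast cells at 194 and 218 CPM, and Gclm dots of SG reach 235 CPM.

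Shares of cells with a UMI followed the levels at low depth. After thinning to 2000 UMIs, 12.4% of OB1 cells (9.54 to 15.8) had a Srxn1 UMI at 4 h and 0.313% (0.00794 to 1.73) at 0 h, against 19.7% and 0.627% unthinned. The share in T cells was 2.45% (0.904 to 5.25) at 4 h and 1.12% (0.136 to 3.98) at 0 h. Median depths were 4469 UMIs in OB1 and 2215 in T cells at 4 h, and thinning left out 44 of 503 OB1 cells and 147 of 392 T cells at that time. In uHF.SB the thinned share was 10.2% (6.80 to 14.6) at 4 h and 1.11% (0.304 to 2.82) at 0 h.

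Among 6073 genes compared over 76 sums of cell type and library, the likeness of each of the 10 genes to others was taken as the correlation of log2(CPM + 1). Srxn1 was most like Cgref1 (Pearson r = 0.67), Uso1 (0.63) and Rnh1 (0.63), and the closest of the other 9 was Hmox1 at 0.46. Prdx1 was most like Pdha1 at 0.79 and among the 10 was closest to Gclm at 0.55. Gclm was most like Ldhb at 0.74, Nqo1 like Sostdc1 at 0.73, Txnrd1 like Rap2b at 0.73 and Hmox1 like Mprip at 0.69. The sums share libraries and depths, so these are descriptions over unlike cell types.

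The other genes of the pathway are 61 genes in 7 lists. Between 4 h and 0 h in OB1, 9 of 48 above the minimum were at least 2-fold higher and 12 lower, beside 18.6% and 14.6% of all genes, so the upward count was near that of all genes. In the upper HF pair 43 of 57 tested differed (23 higher in uHF.SB, 20 lower), beside 59.7% of all genes, and in the epidermal pair 48 of 58 (28 and 20), beside 64.6%. Between OB1 and uHF.B 20 of 57 differed (6 and 14), beside 23.8%, between OB2 and OB1 17 of 51 (6 and 11), beside 20.5%, and 11 of 58 in the difference of the differences (5 and 6), beside 9.67%. The counts of single lists below stand beside the same shares, and nothing particular to a list is read from them.

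By role, of the regulators of NRF2 8 of 10 differed in each suprabasal pair, 6 higher and 2 lower. Nfe2l1, which encodes the related factor NRF1, was higher in suprabasal cells by 0.91 ± 0.09 (edgeR, adjusted p = 8.2e-06) in the upper HF and 0.97 ± 0.08 (adjusted p = 8.41e-06) in the epidermis. Nfe2l2 itself was lower by -0.58 ± 0.11 (adjusted p = 0.00524) in OB1 against uHF.B and by -0.86 ± 0.18 (adjusted p = 0.00551) in OB2 against OB1. In OB1 it stood at 95.4, 59.1, 60.95, 86.0, 55.0 and 94.8 CPM, so its level was not highest at 4 h.

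Of the NADPH-supplying enzymes 5 of 5 differed in the upper HF (4 higher) and 4 of 5 in the epidermis (3 higher), led by malic enzyme Me1 at 4.01 ± 0.14 and 4.56 ± 0.08 on the log2 scale. Of the iron and haem genes 4 of 6 and 6 of 6 differed. The ferritin chains Fth1 and Ftl1 were lower in suprabasal cells, by -1.83 ± 0.13 and -2.18 ± 0.15 in the upper HF, and the iron exporter Slc40a1 was higher by 3.54 ± 0.22 there and 5.41 ± 0.40 in the epidermis. The mitochondrial and peroxisomal peroxiredoxin Prdx5 was higher by 2.02 ± 0.10 and 2.65 ± 0.16, and Prdx4 of the endoplasmic reticulum lower by -1.66 ± 0.16 and -1.78 ± 0.11. In the glutathione list 12 of 14 and 14 of 15 differed, with Gpx8 lower by -1.88 ± 0.13 in the upper HF and the glutaredoxin Glrx higher by 3.40 ± 0.25 in the epidermis.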

How the data were processed

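The deposited matrices hold UMI counts, not normalized, which the authors made with Cell Ranger 6.1.2 against mm10 according to the submitters' processing notes; the annotation was not given in the sources used here. Barcodes with 500 to 7000 detected genes and at most 10% mitochondrial UMIs were kept (55177 of 61031). Since Scrublet's own limit marked 678 cells, nearly all in 1 library, the highest scores were removed instead, 0.8% for each 1000 barcodes (4675 cells), leaving 50502. Cells were clustered with Seurat 5.3.0 without 768 genes, 71 of them antioxidant, and named from marker lists.

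Counts were summed per cell type and library. edgeR 4.0.16 (quasi-likelihood test, TMM scaling, Benjamini-Hochberg adjustment over all genes) was fitted to a natural spline of hours with 3 degrees of freedom, and to pairs of cell types with the library as block, because both sums come from the same library; errors are SE. Sums of 1 library share mice. The p-values of the pairs therefore measure how the difference within a library varies over libraries, each of a different time point. Those of the time course measure the scatter of the libraries around the fitted curve. Neither measures the spread between replicate libraries of the same time point. The time course and pair fits were tested on simulated data. DESeq2 1.42.0 was an alternative. The rule named all 10 genes, and of 61 other pathway genes at most the 10 with the smallest p per comparison; for likeness, the 3 closest genes. Members, lists and tests were chosen with earlier results of these data known, and the difference between pairs, the single clusters and the fit without scaling factors were added after seeing the data. R 4.3.3, Python 3.11.15 and Scanpy 1.11.5 were used.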

Additional observations from a re-analysis of the deposited data

Results flagged for a closer look

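For 3 of the 10 genes the suprabasal minus basal difference was not the same in the upper HF and the interfollicular epidermis by a test of the difference itself (edgeR, library as block). The same test called 9.67% of all genes. On the log2 scale the upper HF value exceeded the epidermal one by 1.30 for Nqo1, and lay below it, at -1.49 for Gclm and -1.57 for Txnrd1. The Gclm call was lost in 5 of 6 fits without 1 library. For Txnrd1 the epidermal clusters lay on opposite sides of the basal cells, at -0.60 and 1.01, and for Nqo1 the upper HF clusters did, at -0.56 and 0.43. The test was added after the pair results were seen.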

How the results depend on the processing

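The time course made 1 call over all cell types with time in hours. It made 6 with log2(hours + 1), 3 with the rank of the time point, 0 with a linear trend and 2 in DESeq2. With at most 5% mitochondrial UMIs it made 0, where melanocytes, with 19 cells at 0 h, were not fitted, so their call was not retried. It made 0 to 9 when 1 library was left out, with 9 without 0 h, 6 without 4 h, 3 without 2 d and 0 without 16 h, 4 d or 6 d. Calls among all genes moved too. In OB1 they were 2 of 11000 with every library, 2251 of 11139 without 0 h and 1110 of 11192 without 4 h. They were 344 of 11187 without 2 d and 242 of 10586 without 16 h. The pairs of cell types made 21 calls with the library as replicate block and 11 with no replicate block, and 18 to 20 without 1 library; the pairing comes from the design, since both sums share a library. Without scaling factors, chosen after seeing the data, Gclc and Prdx1 in IFE.SB minus the basal cells changed sign, to -0.0012 and -0.17. The difference between pairs kept 2 to 3 calls without 1 library. The 4 h over 0 h comparison had 29 gene and cell type pairs past 2-fold and 48 past 1.5-fold. The swing over the libraries was past 2-fold in 36, in 80 with no minimum CPM and in 33 to 36 without 1 library. The median share of cells with a UMI was 4.35% thinned and 12.4% unthinned. Of 502 gene-level pair values under alternatives, 461 stayed on the same side of the threshold, 36 lost the call and 5 gained it, the sign changes of Gclc (lost) and Prdx1 (gained) included. With 1 library per time point, no difference between 2 times has a replicate check.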
